A study of Mus musculus with 8 samples.

Results

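Genes of macrophages and other leukocytes were followed in islet preparations as a reading of the immune cells that each preparation contained. The set was a list of 37 gene symbols given by name, with no measured value in its rule, although earlier results of these data were known when it was drawn up. All 37 were found among the 53012 genes of the count table, and 36 of them were among the 15474 genes that passed the filter on low counts, the exception being Cd3e. The 37 genes were ordered by role into leukocyte surface proteins, myeloid transcription factors, macrophage receptors, complement C1q chains, Fc receptors with their signaling adaptors, lysosomal and effector proteins, MHC class II, and lymphocyte receptors.

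Bulk RNA-seq was performed on the islets of 8 mice, all 17 months old, and each mouse gave its own library. Both groups carried a floxed Igf1r, with loxP sites around exon 3. The 4 βIgf1r mice (M148, M151, M152 and M153) were Ins1-CreERT2-/- Igf1r flox/flox and received corn oil. The 4 βIgf1rKD mice (M145, M146, M149 and M150) were Ins1-CreERT2+/- Igf1r flox/flox and received 5 daily injections of tamoxifen at 0.075 mg/g. The tamoxifen-inducible Cre was driven by an insulin promoter, which is active in β-cells and not in leukocytes. Islets were isolated with collagenase 7 days after the last injection. Cre, tamoxifen and the deletion came together in the same mice and their effects cannot be told apart. Males and females were present in both groups without a mark on the individual mouse, and the level of Xist was fitted as a covariate among the alternatives.

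Islets contain resident macrophages, which lie close to the capillaries and are the most numerous immune cells of a healthy islet. They depend on the cytokine CSF1 acting through its receptor Csf1r, take up debris and granule material, and carry MHC class II, with which they present peptides to T cells. Lymphocytes are scarce in a healthy islet and can also enter a preparation with blood, lymph nodes or exocrine tissue around the islets. A bulk library pools the RNA of all these cells, so that fewer cells of a type and less RNA per cell cannot be told apart.

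The libraries of βIgf1r mice held 21633925 to 31202015 counts and those of βIgf1rKD mice 23825864 to 42391106. The targeted gene Igf1r was at 46.8 to 60.9 CPM in βIgf1r and at 46.9 to 57.9 CPM in βIgf1rKD libraries (log2 fold change -0.08, SE 0.11), where CPM is the count scaled to a common library size by TMM. The gene count also takes reads from outside exon 3, so it does not check the deletion. Acinar enzyme genes, a sign of exocrine tissue, took 1.97% to 14.3% of the counts in βIgf1r and 4.11% to 16.5% in βIgf1rKD libraries, with all 12 markers above 0 in every mouse. Of the 10 endothelial markers tested all had a negative log2 fold change, compared with 47.7% of all genes. An unadjusted p under 0.05 was reached by 5 of them, all lower in βIgf1rKD mice (1.89% of all genes). In 4 of them the groups did not overlap, with βIgf1rKD lower (1.27% of all genes). M149 and M151 stood apart for the genes described here, and values without them are given for each role and for the genes whose log2 fold change they moved most.

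The sequence in front of the transcription start was available for 27 of the 37 genes, in 32 promoters of RefSeq on GRCm38.p6. Windows of 200 bases before the start were searched on both strands for the Y box of class II promoters, bound by the factor NF-Y, and for an Ets motif of the kind that the myeloid factor encoded by Spi1 recognizes. The Y box, searched as CTGATTGG, was present in 3 of the 32 promoters (9.38%) against 1164 of all 32851 promoters (3.54%), and the 3 belonged to H2-Aa, H2-Eb1 and Irf8. The Ets motif, searched as AGGAAGT, was present in 7 of the 32 (21.9%) against 2082 of all promoters (6.34%), and the 7 belonged to C1qb, C1qc, Cd3e, Cd79a, Fcgr1, Lyz2 and Ptprc. These letters are matches and not measured binding sites. The windows with a match in C1qc, Cd3e, Cd79a, Lyz2, Ptprc and H2-Eb1 also held annotated exon, so they are not all sequence outside transcripts. For H2-Eb1 only 30 bases around the Y box are shown for this reason. Shown here 5′ to 3′ are promoters of C1qb and Fcgr1, macrophage genes with an Ets match and an unadjusted p under 0.05. Of the other members with such a p, C1qc also had an Ets match. Ctss, Itgam, Trem2 and Mpeg1 had none, and no promoter of Tyrobp was available. Also shown are promoters of class II genes, which followed other mice than the macrophage receptors did. Capitals mark the Ets motif in C1qb and Fcgr1, read there on the opposite strand, and the Y box in H2-Aa and H2-Eb1.
C1qb (chr4:136886201-136886400, minus strand): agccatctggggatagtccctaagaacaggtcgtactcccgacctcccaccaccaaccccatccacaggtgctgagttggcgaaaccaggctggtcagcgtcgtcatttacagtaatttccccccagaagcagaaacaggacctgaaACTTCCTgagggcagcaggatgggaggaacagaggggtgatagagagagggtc
Fcgr1 (chr3:96293970-96294169, minus strand): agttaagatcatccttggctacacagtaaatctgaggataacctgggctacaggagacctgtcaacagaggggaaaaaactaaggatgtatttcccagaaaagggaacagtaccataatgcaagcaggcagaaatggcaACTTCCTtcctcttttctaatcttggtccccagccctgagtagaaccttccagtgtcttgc
H2-Aa (chr17:34287824-34288023, minus strand): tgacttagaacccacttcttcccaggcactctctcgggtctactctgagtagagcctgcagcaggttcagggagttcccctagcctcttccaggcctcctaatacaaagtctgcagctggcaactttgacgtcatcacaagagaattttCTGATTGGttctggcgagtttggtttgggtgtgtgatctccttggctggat
H2-Eb1 (chr17:34305794-34305823, plus strand): ctcctttgatgCTGATTGGctcccagcact
The Ets match began 53 bases before the start in C1qb and 61 in Fcgr1, and the Y box began 51 bases before the start in H2-Aa and 62 in H2-Eb1.

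The log2 fold changes of macrophage genes were mostly above 0 in βIgf1rKD against βIgf1r islets, and those of MHC class II genes lay near 0. Those of pan-leukocyte and lymphocyte genes were mostly below 0, a direction that rested on the single βIgf1r mouse M151: the 5 leukocyte surface genes had a median of -0.25, and of 0.64 without M151, with all 5 then above 0. Cd79a turned from -0.52 to 0.22 without M151. With limma-voom Cd52, Cd53 and Coro1a were also above 0. No member reached an adjusted p under 0.05 in edgeR's quasi-likelihood test, and no gene of all 15474 did (0%). DESeq2 gave 8 such genes and limma-voom 1, of which 0 were members. At an unadjusted p under 0.05, 8 of the 36 members were higher in βIgf1rKD mice (345 of all genes, 2.23%) and 0 were lower (292 of all genes, 1.89%), against 637 genes in either direction (4.12%). The 8 were Ctss, Itgam, Trem2, C1qb, Mpeg1, Fcgr1, C1qc and Tyrobp, and the smallest adjusted p of the members was 0.987. Unadjusted p-values are given below beside those of an exact test on log2 CPM over all two-sided permutations of the mice, in which 4 against 4 mice cannot give a p below 0.0286. Of the 36 members 9 had a log2 fold change below 0, compared with 47.7% of all genes. The median log2 fold change was 0.32 for the members and 0.008 for all genes tested, with members ranging from -0.52 for Cd79a to 1.39 for Trem2. In 0 of the 36 did the groups separate without overlap, whereas 0.956% of all genes separated with βIgf1rKD higher and 1.27% with βIgf1rKD lower. The members varied more between mice of a group than most genes, with a median within-group SD of 0.485 on the log2 CPM scale against 0.205 for all genes, at a median level of 6.19 against 13.1 CPM.

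The count of 8 depended on which mice were included. Without M149 the count was 1 (Ctss), with 1.93% of all genes higher at the same threshold and a median log2 fold change of 0.07 over the members. Without M151 it was 13, with 2.62% of all genes and a median of 0.56, and without both mice, a choice made after seeing the data, it was 9, with 2.80% and a median of 0.35. Leaving out another βIgf1r mouse gave 2 without M148 (1.30% of all genes), 3 without M152 (4.11%) and 2 without M153 (1.20%). Leaving out another βIgf1rKD mouse gave 15 without M146 (4.11%), 9 without M145 (1.43%) and 3 without M150 (3.14%). With an acinar marker score as a covariate the count was 0 (1.36% of all genes), while the median was 0.24 and 29 of the 36 members were above 0. With limma-voom the count was 4 (1.58%), the median was 0.30 and 32 were above 0.

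M149, a βIgf1rKD mouse, was the highest of the 8 mice for 24 of the 36 members, and M151, a βIgf1r mouse, for 10. Of all 15474 genes 16.2% were highest in M149 and 15.9% in M151. The exceptions were Itgax, highest in M145, and H2-Eb1, highest in M146. M148 was the lowest mouse for 13 members, M153 and M146 for 8 each, M152 for 5 and M145 for 2. All 36 members together took 0.0558% to 0.113% of the counts in βIgf1r and 0.0551% to 0.0918% in βIgf1rKD libraries. The mice that were high thus belonged to different groups, and the genes that set them apart were different ones.

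**Figure D1:**
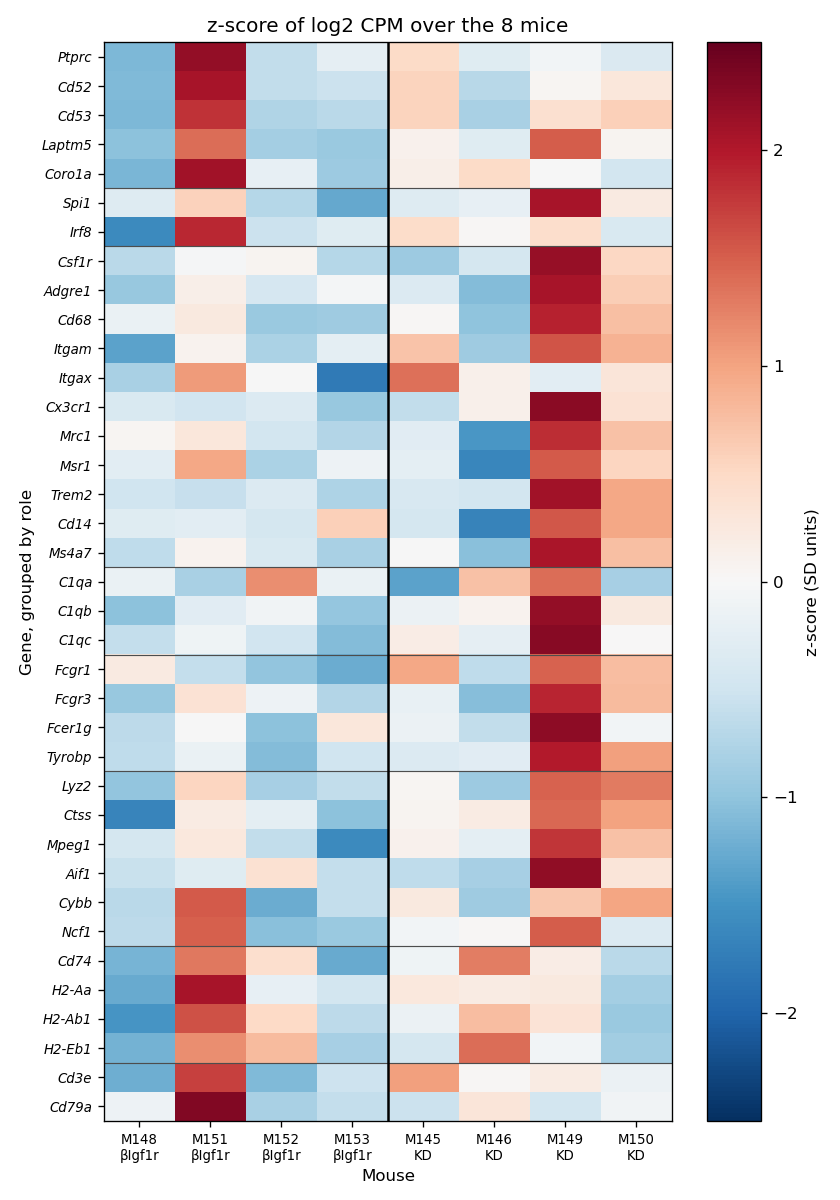
Z-scores of log2 CPM over the 8 mice (color, in SD units) for the 37 genes, in rows grouped by role, with βIgf1r mice left and βIgf1rKD mice right of the line. M149 is the highest mouse for 24 of the 36 genes that passed the filter, mainly macrophage genes, and M151 for 10, mainly pan-leukocyte and class II genes.

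Levels between genes were compared as mean CPM per kilobase of annotated exon. Cd74, the invariant chain that guides class II molecules, was the most abundant at 113, followed by C1qa at 57.4, H2-Eb1 at 38.1, Lyz2 at 29.9, Ctss at 28.5, H2-Ab1 at 26.6, H2-Aa at 21.2 and C1qb at 17.8. Tyrobp, C1qc, Fcer1g and Mpeg1 lay between 6.06 and 7.95. The receptor Csf1r was at 2.36, Adgre1 (F4/80) at 1.99, Cx3cr1 at 1.38 and Itgax at 1.01. The lowest were Ptprc at 0.379, Mrc1 at 0.320, Trem2 at 0.125, Msr1 at 0.105 and Cd3e at 0.0614. The divisor takes every annotated exon base of a gene, 18313 for Ptprc against 4505 for Cx3cr1, and not the length of a single transcript. Before the division Ptprc was at 3.17 to 19.9 CPM and Cx3cr1 at 4.55 to 11.4, so the low rank of Ptprc depends on the divisor. By this measure genes of antigen presentation, complement and the lysosome led the set, and the T-cell gene was last.

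**Figure D2:**
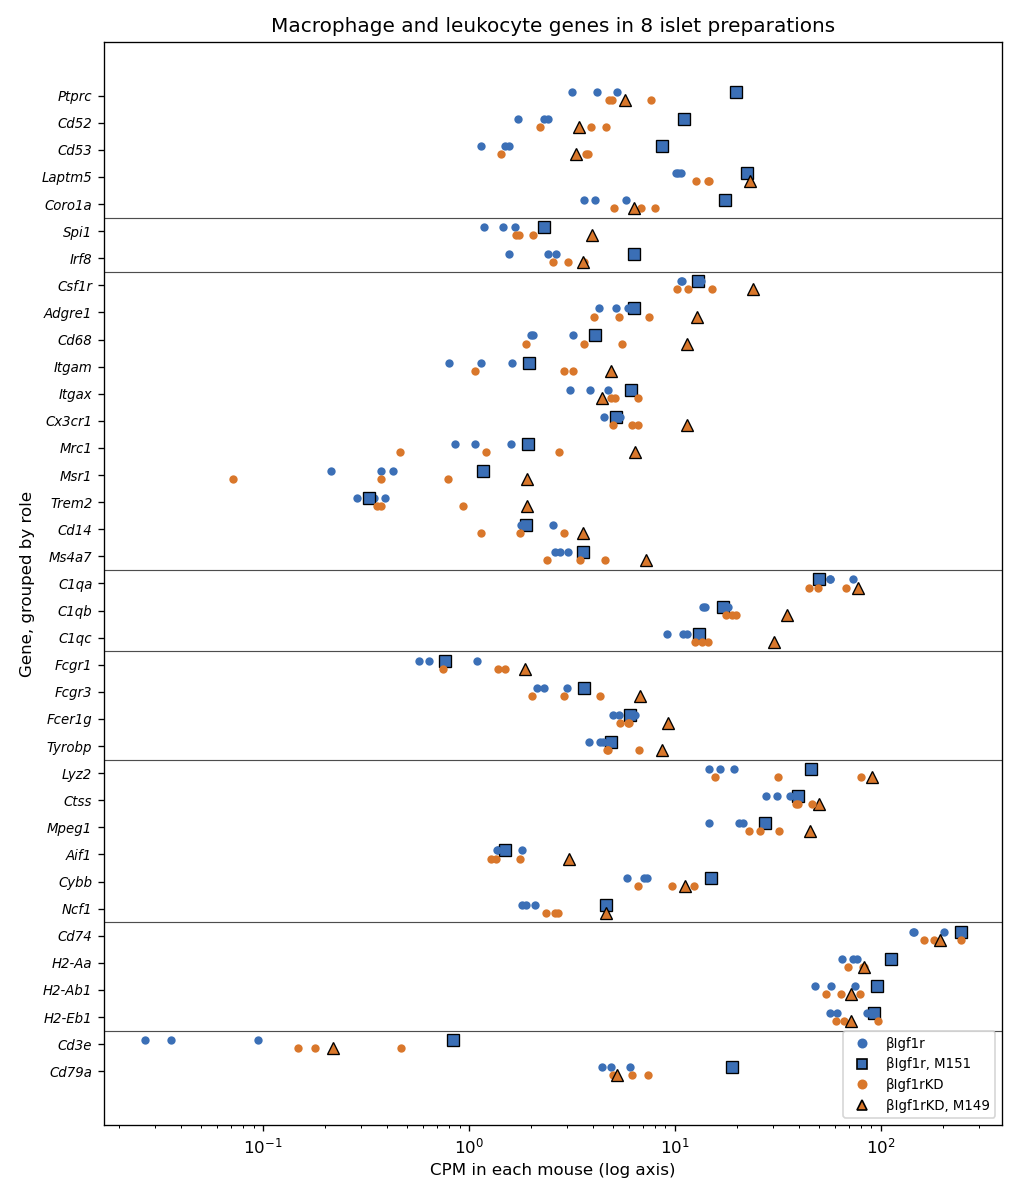
CPM in each mouse on a log axis for the 37 genes, grouped by role, with βIgf1r in blue and βIgf1rKD in orange. Squares mark M151 and triangles M149, which are the highest points of most rows, as for Ptprc (19.9 CPM in M151) and Csf1r (24.1 CPM in M149).

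Among macrophage receptors and surface markers, all 11 had a log2 fold change above 0, with a median of 0.52, and 2 of the 11, Itgam and Trem2, had an unadjusted p under 0.05. In the following, values are CPM in M148, M151, M152 and M153 for βIgf1r and in M145, M146, M149 and M150 for βIgf1rKD. Csf1r, the CSF1 receptor on which macrophages depend, was at 10.9, 12.99, 13.3 and 10.8 in βIgf1r and at 10.2, 11.6, 24.1 and 15.2 in βIgf1rKD mice. M149 and M150 were above all βIgf1r mice, while M145 was below all of them and M146 within their range. The log2 fold change of Csf1r was 0.35 (SE 0.24), and 0.05 without M149. Adgre1, which encodes the macrophage marker F4/80, was at 4.29, 6.37, 5.20 and 5.92 and at 5.33, 4.07, 12.8 and 7.52. Cd68, a glycoprotein of the macrophage lysosome, was at 3.19, 4.11, 1.99 and 2.04 and at 3.60, 1.89, 11.4 and 5.55. Both had the same high mice as Csf1r, with log2 fold changes of 0.45 (SE 0.32) for Adgre1 and 0.98 (SE 0.49) for Cd68. Without M149 these were 0.06 (SE 0.23) and 0.38 (SE 0.39), and the median of the 11 receptors was 0.21, with 9 of 11 above 0.

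Itgam, the integrin CD11b of myeloid cells, was at 0.799, 1.964, 1.14 and 1.61 in βIgf1r and at 2.90, 1.07, 4.92 and 3.21 in βIgf1rKD mice. Of the βIgf1rKD mice 3 lay above all βIgf1r mice and M146 lay within their range. The log2 fold change was 1.14 (SE 0.44, edgeR p = 0.0287, exact permutation p = 0.143), and without M149 it was 0.81 (SE 0.43). Trem2, a lipid receptor of phagocytes, was at 0.346, 0.327, 0.392 and 0.284 and at 0.374, 0.357, 1.92 and 0.937. The counts behind these values were 6 to 44, and M149 and M150 alone lay above the βIgf1r mice. Its log2 fold change of 1.39 (SE 0.54, edgeR p = 0.0288, exact permutation p = 0.114) was the largest of the members, and it was 0.75 (SE 0.42) without M149.

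Mrc1, the mannose receptor CD206, was at 1.60, 1.93, 1.07 and 0.853 in βIgf1r and at 1.22, 0.464, 6.44 and 2.74 in βIgf1rKD mice. Its βIgf1rKD values held both the lowest and the highest mouse of all 8, and its log2 fold change of 0.98 (SE 0.66) was 0.13 without M149. Itgax, the integrin CD11c carried by islet macrophages and dendritic cells, was at 3.89, 6.15, 4.74 and 3.08 and at 6.64, 4.89, 4.44 and 5.11. Itgax was thus the macrophage receptor that was not highest in M149, and its log2 fold change was 0.24 (SE 0.22). The remaining receptors were the fractalkine receptor Cx3cr1 (log2 fold change 0.51, SE 0.24), the scavenger receptor Msr1 (0.52, SE 0.80), the endotoxin coreceptor Cd14 (0.22, SE 0.34) and the tetraspanning membrane protein Ms4a7 (0.55, SE 0.31). Each of these was highest in M149, at 11.4 CPM for Cx3cr1, 1.92 for Msr1, 3.57 for Cd14 and 7.23 for Ms4a7. Without M149 the log2 fold changes were 0.21 for Cx3cr1, -0.34 for Msr1, -0.04 for Cd14 and 0.21 for Ms4a7.

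The 3 chains of complement C1q, the molecule that starts the classical pathway, did not move alike. C1qb was at 13.7, 17.1, 18.1 and 14.0 in βIgf1r and at 17.8, 19.0, 35.1 and 19.9 in βIgf1rKD mice, with a log2 fold change of 0.54 (SE 0.22, edgeR p = 0.0312, exact permutation p = 0.0571). C1qc was at 10.97, 13.1, 11.4 and 9.19 and at 14.5, 12.5, 30.3 and 13.6, with a log2 fold change of 0.66 (SE 0.27, edgeR p = 0.0362, exact permutation p = 0.0571). In both genes 3 βIgf1rKD mice lay above every βIgf1r mouse, and M149 was well above the other 3. C1qa was at 56.9, 49.98, 73.8 and 56.8 and at 44.96, 67.8, 77.6 and 49.7, with a log2 fold change of 0.02 (SE 0.18, 95% interval -0.34 to 0.37). M149 was again highest for C1qa but only slightly above M152. Without M149 the log2 fold changes were 0.27 (SE 0.12) for C1qb and 0.28 (SE 0.13) for C1qc.

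All 4 Fc receptors and adaptors had a log2 fold change above 0, with a median of 0.51, and 2 of the 4 had an unadjusted p under 0.05. Fcgr1, the high-affinity receptor for IgG, was at 1.09, 0.764, 0.641 and 0.569 in βIgf1r and at 1.5, 0.750, 1.87 and 1.38 in βIgf1rKD mice (log2 fold change 0.82, SE 0.33, edgeR p = 0.0352, exact permutation p = 0.0857). Tyrobp, the adaptor DAP12 through which TREM2 signals, was at 4.34, 4.91, 3.84 and 4.50 and at 4.68, 4.75, 8.66 and 6.73 (log2 fold change 0.50, SE 0.21, edgeR p = 0.0406, exact permutation p = 0.0857). M146 lay within the βIgf1r range for both genes, and M145 did so for Tyrobp. Without M149 the log2 fold changes were 0.64 (SE 0.35) and 0.30 (SE 0.18). Fcgr3, a low-affinity IgG receptor, was at 2.13 to 3.64 and at 2.04 to 6.75 CPM, and Fcer1g, the common γ chain of Fc receptors, was at 4.98 to 6.40 and at 5.39 to 9.23 CPM, with the highest value of each in M149. Their log2 fold changes were 0.53 (SE 0.35) for Fcgr3 and 0.22 (SE 0.18) for Fcer1g, and 0.16 and 0.017 without M149.

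All 6 lysosomal and effector genes had a log2 fold change above 0, with a median of 0.33, and 2 of the 6, Ctss and Mpeg1, had an unadjusted p under 0.05. Ctss, encoding cathepsin S, the protease that cleaves the invariant chain, was at 27.8, 39.6, 36.3 and 31.3 in βIgf1r and at 38.6, 39.6, 50.2 and 46.2 in βIgf1rKD mice. The means were 33.7 ± 5.25 and 43.7 ± 5.55 CPM (SD, n = 4 each), and only M151 among the βIgf1r mice reached the βIgf1rKD range. The log2 fold change of Ctss was 0.37 (SE 0.13, edgeR p = 0.0167, exact permutation p = 0.0857), and it was 0.30 (SE 0.13) without M149 and 0.46 (SE 0.13) without M151. Mpeg1, a pore-forming protein of phagosomes, was at 21.6, 27.4, 20.4 and 14.6 and at 25.9, 23.0, 45.4 and 32.0. Its log2 fold change was 0.58 (SE 0.23, edgeR p = 0.033, exact permutation p = 0.0857), and 0.36 (SE 0.20) without M149. Lyz2, lysozyme M, was at 14.7, 45.7, 16.7 and 19.3 and at 31.9, 15.7, 91.1 and 80.03. M149 and M150 were high, M151 came next, and M146 was as low as the remaining βIgf1r mice, so that the log2 fold change of 1.19 had an SE of 0.55. The log2 fold change of Lyz2 was 0.83 (SE 0.55) without M149 and 1.70 (SE 0.55) without M151.

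The other 3 genes of this role were Aif1 (IBA1, a calcium-binding protein of macrophages), Cybb and Ncf1, subunits of the NADPH oxidase. Their log2 fold changes were 0.30 (SE 0.30), 0.18 (SE 0.30) and 0.24 (SE 0.35). Aif1 and Ncf1 were highest in M149, at 3.05 and 4.66 CPM, and Cybb was highest in M151, at 14.9 CPM. Aif1 was at -0.036 and Ncf1 at -0.025 without M149, and Cybb was at 0.56 without M151.

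**Figure D3:**
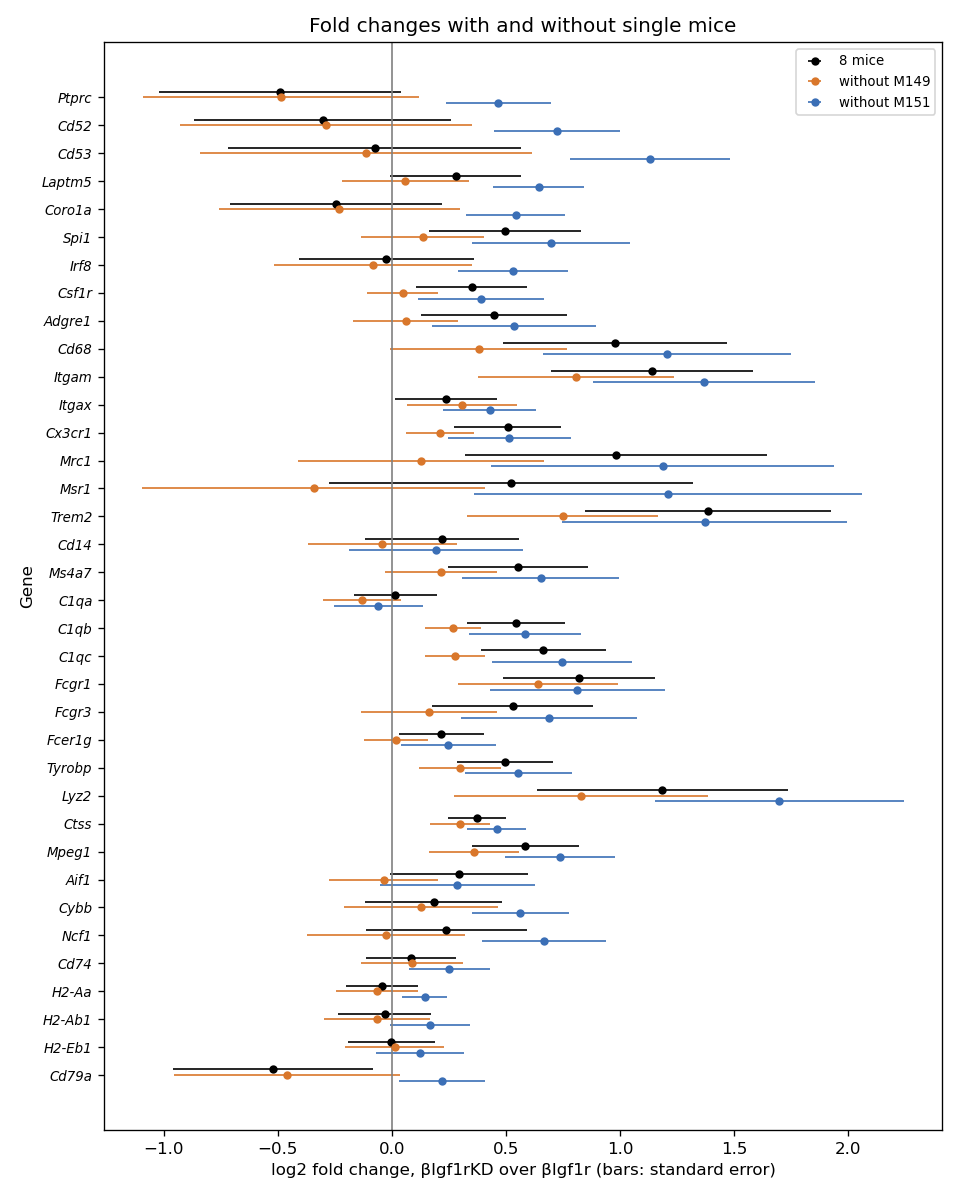
Log2 fold change of βIgf1rKD over βIgf1r for the 36 genes that passed the filter, with all 8 mice (black), without M149 (orange) and without M151 (blue); bars are standard errors. Leaving out M149 moves macrophage genes toward 0 (Csf1r from 0.35 to 0.05), and leaving out M151 moves pan-leukocyte genes above 0 (Ptprc from -0.49 to 0.47). Where M149 or M151 is the highest mouse of its group, the direction of the shift is fixed in advance.

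The leukocyte surface and cytoskeleton genes, which are shared by lymphoid and myeloid cells, gave another order of mice. Ptprc, the leukocyte common antigen CD45, was at 3.17, 19.9, 4.20 and 5.21 in βIgf1r and at 7.67, 4.96, 5.70 and 4.81 in βIgf1rKD mice. M151 was far above the other 7 mice. The log2 fold change was -0.49 (SE 0.53) and turned to 0.47 (SE 0.23) without M151. Cd52, a surface glycoprotein abundant on lymphocytes, was at 1.73, 11.1, 2.31 and 2.42 and at 4.63, 2.21, 3.44 and 3.92, and its log2 fold change of -0.30 (SE 0.56) turned to 0.72 (SE 0.28) without M151. The tetraspanin Cd53 (-0.08, SE 0.64), with 8.69 CPM in M151 and at most 3.80 elsewhere, and the actin regulator Coro1a (-0.25, SE 0.46), with 17.6 CPM in M151 and at most 8.0 elsewhere, had the same high mouse and were at 1.13 (SE 0.35) and 0.54 (SE 0.22) without M151. The lysosomal membrane protein Laptm5 (0.28, SE 0.29) was at 22.3 CPM in M151 and 23.2 in M149, and at most 14.6 in the other 6 mice. Its log2 fold change was 0.06 without M149 and 0.64 without M151.

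The 2 myeloid transcription factors differed in their highest mouse, which was M149 for Spi1 and M151 for Irf8. Spi1, encoding PU.1, was at 1.68, 2.33, 1.46 and 1.18 in βIgf1r and at 1.68, 1.75, 3.96 and 2.05 in βIgf1rKD mice, with M149 highest and M151 next (log2 fold change 0.50, SE 0.33, and 0.14 without M149). Irf8, needed by macrophages, dendritic cells and B cells, was highest in M151 at 6.33 CPM, against 1.57 to 3.60 in the other 7 mice (log2 fold change -0.02, SE 0.38, and 0.53 without M151).

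MHC class II genes did not follow the macrophage receptors. H2-Aa, an α chain, was at 64.7, 112, 76.9 and 73.7 in βIgf1r and at 83.0, 82.3, 82.7 and 69.1 in βIgf1rKD mice. Cd74 was at 145.9, 246, 204 and 143 and at 182, 245, 194 and 162. M149, the highest mouse for 10 of 11 macrophage receptors, was neither highest nor lowest for both genes, while M151 was the highest. The log2 fold changes were -0.04 (95% interval -0.35 to 0.26) for H2-Aa, -0.03 (-0.43 to 0.37) for H2-Ab1, -0.0026 (-0.38 to 0.37) for H2-Eb1 and 0.08 (-0.30 to 0.47) for Cd74. Without M151 all 4 were above 0, with a median of 0.16. With all mice, all 4 lay within 1 SE of 0, which does not show equal levels, since the intervals reach from -0.43 to 0.47. The mean z-score of the 4 genes was 1.54 in M151, 0.92 in M146 and 0.38 in M152, against 0.17 in M149. The matching values of the 11 macrophage receptors were 0.14, -0.85, -0.44 and 1.71.

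Both lymphocyte receptors were highest in M151. Cd3e, a chain of the T-cell receptor complex, was at 0.027, 0.837, 0.036 and 0.095 in βIgf1r and at 0.468, 0.179, 0.218 and 0.148 in βIgf1rKD mice, from 1 to 23 counts a library, and was not tested because it did not pass the filter. Cd79a, the signaling chain of the B-cell receptor, was at 6.07, 18.9, 4.41 and 4.88 and at 5.01, 7.43, 5.22 and 6.22, with a log2 fold change of -0.52 (SE 0.44) and of 0.22 without M151. Its partner Cd79b was at 6.29 CPM in M151 and at 0.186 to 1.26 in the other 7 mice, while Cd79a stayed at 4.41 to 7.43 CPM in those mice.

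The wider marker lists set values beside M151 and M149. All 13 B and plasma cell markers were highest in M151, with a summed level of 1469 CPM against 27.6 to 49.4 in the other βIgf1r mice and 168 to 517 in the βIgf1rKD mice, and of the defining markers Pax5 was at 0 in M148. Ighm, the heavy chain of IgM, was at 22.97, 797, 18.5 and 7.44 in βIgf1r and at 363, 186, 43.1 and 153.5 in βIgf1rKD mice. Apart from M151, the βIgf1rKD mice were thus above the βIgf1r mice for Ighm, an order that was noticed in the values. The log2 fold change of Ighm was -0.18 (SE 1.29), and without M151, its highest mouse, it was 3.5 (SE 0.70). Leaving out the highest βIgf1r mouse can only raise this value, so it is not a test. Of 21 T and NK cell markers 19 were highest in M151, with a summed level of 7.25 to 33.5 CPM in βIgf1r and 8.03 to 10.7 in βIgf1rKD mice, and Cd3d was at 0 in M149. M151 differed in endocrine genes as well, with all 6 α-, δ- and PP-cell markers highest there. Their summed level was 45114 CPM in M151, against 18478 to 22900 in the other βIgf1r mice and 15098 to 34421 in βIgf1rKD mice. In M149 the acinar markers were highest for 8 of 12 genes, fibroblast and stellate markers for 7 of 9 and duct markers for 4 of 5. The summed acinar level was 15985, 27236, 159250 and 85139 CPM in βIgf1r and 170940, 34969, 198110 and 114960 in βIgf1rKD mice. In the same order of mice the mean z-score of the 11 macrophage receptors was -0.54, 0.14, -0.44 and -0.58, and -0.10, -0.85, 1.71 and 0.67. The summed level of fibroblast markers was 199.8 to 227 in βIgf1r and 112 to 367 in βIgf1rKD mice. That of duct markers was 175 to 210.1 and 181 to 231. The top of the βIgf1rKD values was in M149 for each of these 3 lists. Most of the duct sum was Krt7, which went another way, at 193.8 CPM in M146, its highest mouse, and 139.5 in M149. Spp1, at 61.0 CPM in M149, was listed among both the duct and the other macrophage genes. Krt19, a keratin of duct cells, was at 25.6 CPM in M149 and at 1.32 to 5.29 elsewhere. The part of these cell types and of the lymphocytes in the results above was not tested beyond the covariate and the left-out mice.

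**Figure D4:**
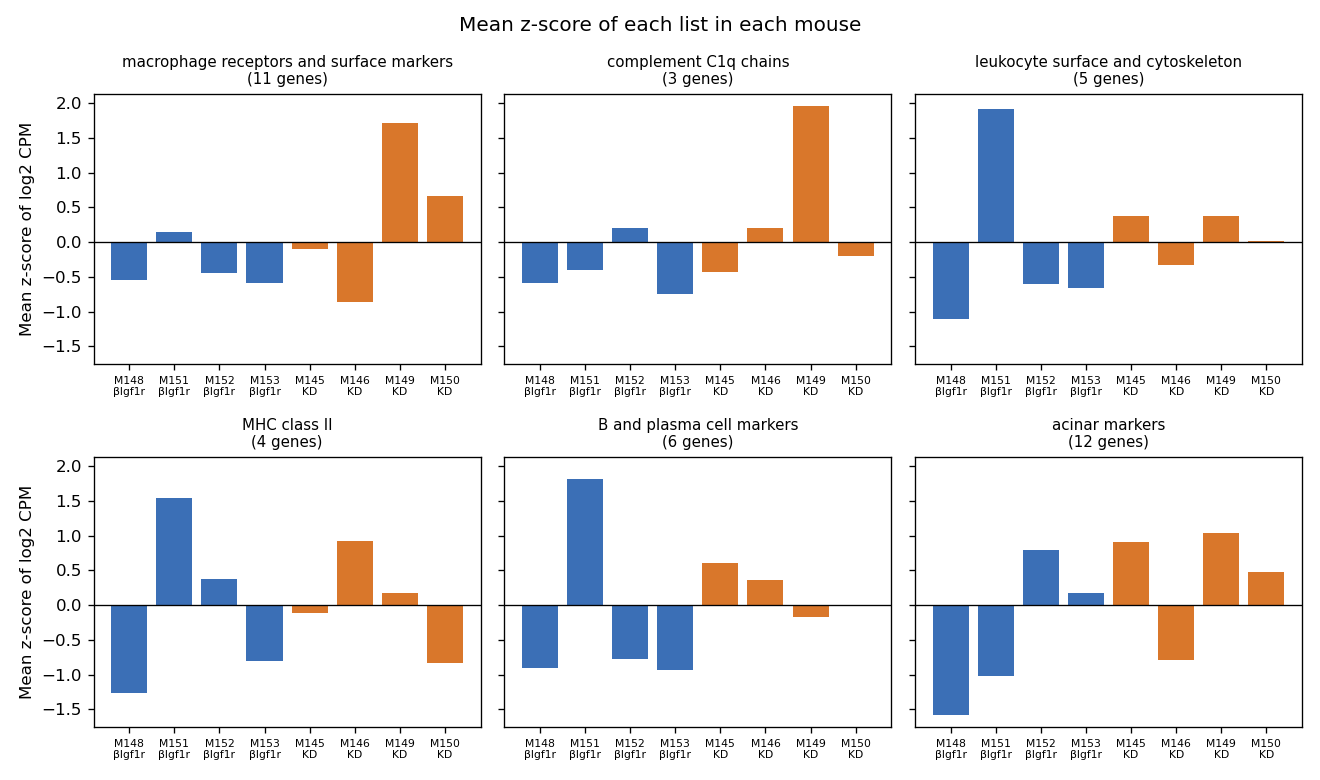
Mean z-score of log2 CPM (bars, SD units) in each mouse for 4 roles of the member genes and for B-cell and acinar markers, with βIgf1r in blue and βIgf1rKD in orange. M149 has the tallest bar for macrophage receptors (1.71) and C1q (1.96), and M151 for leukocyte surface genes (1.91), class II (1.54) and B-cell markers (1.81).

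Of 100 further leukocyte genes that passed the filter, 7 were higher in βIgf1rKD mice at an unadjusted p under 0.05 (2.23% of all genes), 0 were lower (1.89%), and 0 had an adjusted p under 0.05. The count was 3 without M149 (1.93% of all genes), 3 without M153 (1.20%), 4 without M148 (1.30%) with 1 lower, 17 without M146 (4.11%) and 25 without M151 (2.62%). Among other macrophage genes, 43 of 49 had a log2 fold change above 0, with a median of 0.31, and 5 of the 7 were here. These were the complement receptors C3ar1 (1.44, SE 0.43) and C5ar1 (1.07, SE 0.46), the RNA sensor Tlr7 (1.58, SE 0.54), the scavenger receptor Marco (1.74, SE 0.64) and the nucleotide receptor P2ry6 (0.85, SE 0.34), and all 5 were highest in M149. Without M149 they were at 0.89 (SE 0.30), 0.70 (SE 0.44), 1.15 (SE 0.51), 1.26 (SE 0.63) and 0.60 (SE 0.33), and the median of the other macrophage genes was 0.13, with 38 of 50 above 0. C3ar1 was at 1.04, 1.67, 1.03 and 0.948 in βIgf1r and at 2.29, 1.54, 6.31 and 2.69 in βIgf1rKD mice, with M146 alone inside the βIgf1r range.

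Of the macrophage growth factors and chemokines 11 of 22 passed the filter and 8 had a log2 fold change above 0, with a median of 0.36, and of 0.056 without M149. Csf1, the ligand of Csf1r, was at 14.2, 13.4, 14.6 and 13.6 in βIgf1r and at 22.2, 17.1, 18.7 and 13.8 in βIgf1rKD mice (log2 fold change 0.36, SE 0.14, edgeR p = 0.025, exact permutation p = 0.0857). Its highest mouse was M145, and M150 lay among the βIgf1r mice, so that the order of the βIgf1rKD mice differed from that of Csf1r. Of 11 chemokine and cytokine receptors 6 were above 0 and 5 below. Among them Cmklr1, the chemerin receptor of macrophages, was at 1.62, 1.93, 1.5 and 1.14 and at 2.06, 2.11, 3.87 and 3.08, with no overlap between the groups. Its log2 fold change was 0.84 (SE 0.27, edgeR p = 0.0113, exact permutation p = 0.0286), and 0.64 (SE 0.26) without M149. No other of the 100 further leukocyte genes separated, against 0.956% of all genes with βIgf1rKD higher and 1.27% with βIgf1rKD lower. Any gene that separates reaches the permutation p of 0.0286, the smallest possible here. The class II machinery beyond the members, 11 of 12 genes tested, had 6 genes above 0 and 5 below and a median of 0.00038, with its master regulator Ciita at -0.11 (SE 0.47). Without M151 10 of these 11 were above 0, with a median of 0.21, and Ciita was at 0.71 (SE 0.22). Of dendritic cell markers 5 of 9 were tested, with 2 above 0 and 3 below, and of T and NK cell markers 6 of 21, with 1 above 0, 5 below and a median of -0.48. All 6 tested B and plasma cell genes were below 0, with a median of -0.74, and no gene of these 3 lists had an unadjusted p under 0.05. These directions rested on M151, since the mean log2 CPM of the 6 B-cell genes was 0.91, 5.59, 1.16 and 0.82 in βIgf1r and 3.62, 3.15, 2.19 and 2.60 in βIgf1rKD mice. Without M151 all 6 were above 0, with a median of 2.04. Of the 6, 5 were then higher at an unadjusted p under 0.05 (2.62% of all genes). The T and NK cell genes then had 5 of 6 above 0 and a median of 0.39, and no gene of all genes tested without M151 had an adjusted p under 0.05. M151 was the highest mouse for all 13 B and plasma cell markers. Leaving it out had to raise their log2 fold changes, so these values are a description and not a test. Of 13 neutrophil and mast cell markers Csf3r alone passed the filter (0.53, SE 0.40).

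Ratios compare 2 genes within each library, and 8 of them were tested by exact two-sided permutation of the mice, with p-values adjusted over the 8. None reached an adjusted p under 0.05. The log2 ratio of Trem2 to Csf1r was -4.89 ± 0.135 in βIgf1r and -4.21 ± 0.538 in βIgf1rKD mice (SD, n = 4 each), a difference of 0.68 (exact permutation p = 0.0571, adjusted 0.229). That of Csf1r to Pecam1, an endothelial gene, differed by 0.52 (exact permutation p = 0.0857, adjusted 0.229) and that of Csf1r to Chga, a gene of endocrine cells, by 0.26 (exact permutation p = 0.6, adjusted 0.8). Pecam1 itself was lower in every βIgf1rKD mouse, at 32.0 to 37.7 CPM against 39.7 to 43.5 in βIgf1r mice. The log2 fold change of Csf1r alone was 0.35 (SE 0.24), so both genes enter the difference of 0.52. The ratio of C1qa to Csf1r differed by -0.28 and that of Lyz2 to Csf1r by 0.74 (exact permutation p = 0.257 and adjusted 0.411 for each). The ratio of Cd3e to Ptprc differed by 0.71 (exact permutation p = 0.0571, adjusted 0.229), on 1 to 23 counts of Cd3e. Those of Cd74 to Ptprc and of Itgax to Mrc1 differed by 0.21 (exact permutation p = 0.771) and -0.20 (exact permutation p = 0.83). Itgax to Mrc1, a contrast of CD11c with CD206, was 3.21 in M146 and -0.53 in M149, which lie in the same group.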

How the data were processed

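Estimated counts per gene, not scaled between libraries, were deposited by the authors for every mouse. The submitters' processing notes name fastp, kallisto and the build GRCm38, without versions. The libraries were stranded mRNA libraries. Groups and mouse numbers were taken from the labels.

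Estimated counts were rounded, and genes passing edgeR's filter (a minimum count of 10 in 4 mice after scaling and a minimum total of 15) were kept. The quasi-likelihood test of edgeR 4.0.16 in R 4.3.3 was run with TMM factors and Benjamini-Hochberg adjustment over 15474 genes. CPM are scaled by TMM, and log2 CPM and ratios use a prior count of 2. Of the identifiers 51906 matched a symbol, and coordinates are those of GENCODE on GRCm38. Intervals of 95% assume a normal error. Total counts of at least 21633925 leave a large counting error for genes of few counts, such as Cd3e and Trem2. Separate mice gave separate libraries, so p-values set the difference between groups against the variation between animals. In the main fit this variation includes that from sex and acinar content.

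The alternatives were RLE factors, DESeq2 1.42.0, limma-voom (limma 3.58.1), no filter, 10 counts in every mouse, Xist or an acinar score as a covariate, a prior count of 0.5 and each mouse left out. Leaving out M149 and M151 together was chosen after seeing the data. The members and lists were chosen with earlier results of these data known. Named with values in every mouse were preset markers of each role, members with an unadjusted p under 0.05 and the 3 smallest p in each direction, and from the other lists genes with an unadjusted p under 0.05 and genes of smallest p. Ighm, Cd79b, Krt19, Pax5 and Cd3d were chosen after their values were seen. Scripts were tested on simulated data.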

Additional observations from a re-analysis of the deposited data

Results flagged for a closer look

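In 9 of 90 groups of 4 mice examined, over the single genes and the ratios, the highest or lowest mouse lay apart from the other 3, with a gap that took more of the range on the log2 scale than the 95% critical value of Dixon's test. Chance alone gives about 5% of groups. In βIgf1r mice M151 was the high mouse for Laptm5 (0.928 of the range), Cd53 (0.850) and Ncf1 (0.844) and the low mouse for the ratio of C1qa to Csf1r (0.847), and M153 was the high mouse for Cd14 (0.833). In βIgf1rKD mice M149 was the high mouse for C1qb (0.839) and C1qc (0.835). The low mice there were M150 for H2-Aa (0.949) and M146 for Cd53 (0.857).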

How the results depend on the processing

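No paired analysis was possible because no mouse number occurs in both groups. The number of genes at an unadjusted p under 0.05 was 637, and it was 1098 with no filter, 1143 with Xist and 390 with the acinar score as a covariate, and between 383 and 1114 with a mouse left out. At an adjusted p under 0.05 the number was 0, and it was 8 with DESeq2, 1 with limma-voom and 5 without M149 and M151. The 8 members at an unadjusted p under 0.05 became 4 with limma-voom, 0 with the acinar score, and 1 to 15 with a mouse left out. Members above 0 numbered 23 to 35, with medians of 0.07 to 0.56, and those highest in M151 10 to 14, with a mouse left out. The 7 further leukocyte genes became 4 with 10 counts in every mouse, 15 with Xist, of which 10 were higher and 5 lower, 2 with the acinar score, 22 without M149 and M151, and 3 to 25 with a mouse left out.

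With a mouse left out, the differences in log2 ratio ran from -0.21 to 0.44 for Cd74 to Ptprc, -0.77 to 0.48 for Itgax to Mrc1, -0.45 to -0.17 for C1qa to Csf1r, 0.48 to 0.87 for Trem2 to Csf1r, 0.48 to 1.13 for Lyz2 to Csf1r, 0.58 to 0.88 for Cd3e to Ptprc, -0.029 to 0.47 for Csf1r to Chga and 0.29 to 0.67 for Csf1r to Pecam1. Without M149 and M151 they were -0.21 for Cd74 to Ptprc and 0.46 for Itgax to Mrc1.

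Log2 fold changes of members that turned their sign with limma-voom were 0.13 for Cd52, 0.42 for Cd53, 0.047 for Coro1a, 0.17 for Irf8, -0.0038 for C1qa, 0.0032 for H2-Ab1 and 0.0050 for H2-Eb1. With the acinar score they were 0.13 for Cd53, 0.013 for Coro1a, 0.029 for Irf8, -0.073 for Cd14, -0.036 for C1qa and 0.038 for H2-Eb1. Without M149 and M151 they were 0.47 for Ptprc, 0.74 for Cd52, 1.09 for Cd53, 0.56 for Coro1a, 0.47 for Irf8, -0.068 for Cd14, -0.21 for C1qa, -0.043 for Aif1, 0.12 for H2-Aa, 0.14 for H2-Ab1, 0.14 for H2-Eb1 and 0.28 for Cd79a. With a mouse left out they ran from -0.76 to 0.47 for Ptprc, -0.57 to 0.72 for Cd52, -0.36 to 1.13 for Cd53, -0.49 to 0.54 for Coro1a, -0.26 to 0.53 for Irf8, -0.34 to 1.21 for Msr1, -0.042 to 0.45 for Cd14, -0.13 to 0.14 for C1qa, -0.036 to 0.44 for Aif1, -0.025 to 0.66 for Ncf1, -0.044 to 0.25 for Cd74, -0.14 to 0.14 for H2-Aa, -0.17 to 0.17 for H2-Ab1, -0.16 to 0.12 for H2-Eb1 and -0.74 to 0.22 for Cd79a. With RLE, DESeq2, no filter, 10 counts in every mouse and Xist 0 members turned their sign. The causes were not tested.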
